A study of Mus musculus with 20 samples.

Results

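Ketamine-xylazine anesthesia was compared with wakefulness in the hippocampus of mice, by single nuclei RNA-sequencing with 1 library per mouse. The comparison holds 13 of the 20 libraries of the series: 4 of ketamine-xylazine mice (2 wild-type, WT, and 2 APP/PS1) and 9 of wake mice (6 WT and 3 APP/PS1), chosen by their labels alone. All were male littermates aged 4.5 to 5.5 months, either WT or carrying the APPSwe and PS1ΔE9 transgenes, which model familial Alzheimer's disease under a prion protein promoter. The anesthetized mice received 150 mg/kg ketamine together with 12 mg/kg xylazine and were killed after 3 h, so ketamine and xylazine cannot be told apart, nor can drug and loss of consciousness. The remaining 7 libraries, used in 1 comparison below, are of 3 WT and 4 APP/PS1 males of the same age kept for 3 h under 1.5% isoflurane. The design text of the deposit counts 1 WT wake mouse fewer and 1 APP/PS1 wake mouse more than the sample labels do, and the labels were used.

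Ketamine blocks the pore of NMDA receptors, the glutamate receptors that pass calcium into neurons when presynaptic release and postsynaptic depolarization coincide. Xylazine activates alpha2-adrenergic receptors, which lower noradrenaline release and cyclic AMP. Calcium entry and cyclic AMP lead, through the kinases of the ERK cascade and the transcription factors CREB and SRF, to the transcription of immediate-early genes such as Fos, Npas4 and Arc, which neurons transcribe within minutes of activity. The RNA of nuclei is rich in recent transcripts, so its levels stay close to ongoing transcription.

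The 13 libraries held 97342 of the 160777 nuclei of the series, with 9243992 to 25394891 unique molecular identifiers (UMIs) per library and a median of 1235 to 3169 UMIs per nucleus. Several libraries stood apart. Mitochondrial UMIs made up 1.05% of the counts in both mouse 1 and mouse 2, and at most 0.321% in the others. Prnp, whose promoter drives the transgenes, was at 192 counts per 1000000 UMIs (CPM, on library totals scaled by edgeR) in the library labelled WT of mouse 14 and at 73.5 CPM in the library labelled APP/PS1 of mouse 17, where the other WT libraries held 43.8 to 113 CPM and the other APP/PS1 libraries 187 to 404 CPM. These 2 libraries thus went against their genotype labels, and counts are given below with and without them. The study's methods describe tissue handled 4 samples at a time, 1 from each combination of genotype and awake or anesthetized state. Which mice shared such a batch, and whether this held for ketamine-xylazine mice, is not given in the sources used here, and the labels number the mice without saying whether the numbers follow batches. The 4 ketamine-xylazine mice carry the numbers 25 to 28 (25 and 26 APP/PS1, 27 and 28 WT), and the only wake mouse whose number lies in the same run is mouse 29. A library shared 3.59% to 4.62% of its cell barcodes with any other library.

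UMIs of all nuclei were summed per mouse and compared with edgeR's quasi-likelihood test, with genotype as a covariate and Benjamini-Hochberg adjustment over all genes. Of 19300 genes tested, 2591 (13.4%) passed an adjusted p of 0.05, 1320 of them higher (6.84%) and 1271 lower (6.59%) after ketamine-xylazine. The median log2 fold change was 1.01 among the higher genes and -0.71 among the lower ones. The higher genes had the lower expression: their median wake level was 5.49 CPM, against 23.9 CPM for the lower genes, and 310 of the higher and 40 of the lower genes were under 1 CPM in wake. A gene nearly absent in wake passes the filter on low counts only through the anesthetized mice, and can then only be higher. The filter therefore partly sets this contrast. The 4 anesthetized mice did not overlap the 9 wake mice in 585 of the higher and 640 of the lower genes, while 7.27% of all genes tested did not overlap. In summed nuclei, fewer nuclei of a type and less RNA per nucleus cannot be told apart.

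**Figure D1:**
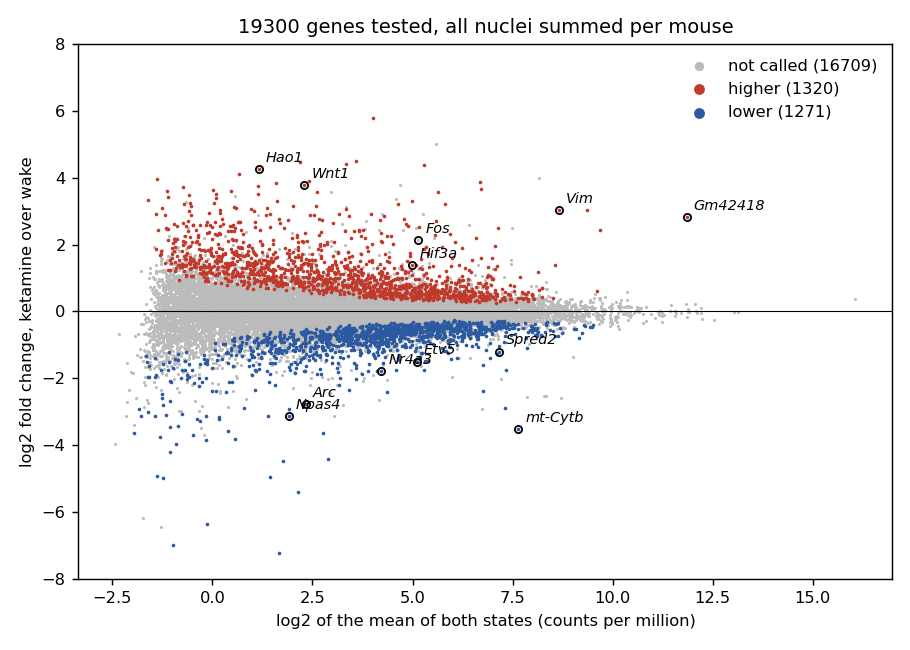
Mean of the wake mean and the ketamine-xylazine mean (log scale, CPM) on the x axis against the log2 fold change of ketamine-xylazine against wake on the y axis, 1 point per gene tested, with genes at an adjusted p below 0.05 coloured by direction. The higher genes spread over the low end of the level axis, down to a wake level under 1 CPM, and the lower genes lie mostly further to the right.

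Mouse 29 lay part of the way between the groups. With it left out of the fit, 3392 genes passed, and on the scale from the other wake mice (0) to the ketamine-xylazine mice (1) its median position was 0.598 over the 3389 of them that had also been tested with it. Mouse 19 lay at 0.330 and the other 7 wake mice between -0.147 and 0.104, each likewise left out of its own fit. Over those 3389 genes it was nearer the ketamine-xylazine mice for 59.96%. Measured against mouse 29 alone, the differences kept their direction in 1256 of the 1320 higher and 1156 of the 1271 lower genes, with median log2 differences of 0.47 and -0.34. These genes were called with mouse 29 among the wake mice, so this agreement was partly set by the selection, and no share over all genes was taken. Mouse 29 lay beyond all anesthetized mice, on the wake side, in 873 (66.1%) of the higher and 893 (70.3%) of the lower genes. With runs of neighbouring mouse numbers entered as a block, 0 genes passed in edgeR, and 1117 of 20672 had an unadjusted p under 0.05. The runs were taken as mice 1 to 4, 10 to 13, 14 to 17, 18 to 20 and 25 to 29. Numbers 10 to 20 have no gap, so the cuts within them were a choice. The anesthetic and the last run can be told apart only through mouse 29, so its level is given beside most genes described. Without mice 1 and 2, 1580 genes passed, without mice 14 and 17, 1539 passed, and without single mice the count ranged from 645 to 3392. The low counts came without mouse 27 (645), 26 (1148), 25 (1174), 2 (1661) and 28 (1685), and the high count without mouse 29.

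Of 25 immediate-early transcription factors tested, 7 were lower after ketamine-xylazine, Npas4 among them, 1 (Jun) was higher and 17 did not pass, where 6.59% of all genes were lower. Their median log2 fold change was -0.22, against -0.02 over all genes. Npas4 (chr19:4984355-4990316 in GRCm38), a calcium-induced transcription factor of neurons, was at 0.723, 1.04, 0.449 and 0.728 CPM in ketamine-xylazine mice 25 to 28 and at 5.10 to 9.47 CPM (median 6.43) in the wake mice. All 4 anesthetized mice lay far below all 9 wake mice, mouse 29 included with its 6.79 CPM. The difference was 8.77-fold (log2 fold change -3.13 ± 0.29 SE, adjusted p = 0.000216), and it passed in 22 of 23 alternative settings, all but the block on runs.

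Egr4, a zinc finger factor of the EGR family, was at 1.45, 0.581, 0.787 and 0.819 CPM after ketamine-xylazine and at 2.11 to 9.37 CPM (median 6.90) in wake (log2 fold change -2.91 ± 0.44 SE, adjusted p = 0.00212). Its groups did not overlap, but mouse 29, at 2.11 CPM, was the lowest of the wake mice. The 3 orphan nuclear receptors of the NR4A family, which neurons induce through cyclic AMP and calcium, all fell. Nr4a1 was at 27.8, 16.4, 16.5 and 15.3 CPM against 31.5 to 43.4 CPM (median 34.0, log2 fold change -0.99 ± 0.17 SE, adjusted p = 0.00446). Nr4a3 was at 10.7, 9.75, 7.19 and 6.01 CPM against 12.6 to 56.2 CPM (median 25.8, log2 fold change -1.79 ± 0.37 SE, adjusted p = 0.0101), and Nr4a2 at 18.6, 13.6, 16.4 and 17.0 CPM against 19.2 to 42.1 CPM (median 27.2, log2 fold change -0.85 ± 0.22 SE, adjusted p = 0.0251). None of the 3 overlapped between groups, with mouse 29 at 33.7 CPM of Nr4a1 near the middle of the wake mice, and at 12.6 CPM of Nr4a3 and 20.8 CPM of Nr4a2 near their low end.

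Of 29 effector genes that neuronal activity induces downstream, 10 were lower (all genes, 6.59%) and the other 19 did not pass, with a median log2 fold change of -0.47. Arc (chr15:74669083-74672570), which removes AMPA receptors from synapses, was at 1.50, 1.86, 1.69 and 0.455 CPM after ketamine-xylazine and at 3.72 to 15.4 CPM (median 7.91) in wake, a 6.80-fold difference (log2 fold change -2.77 ± 0.41 SE, adjusted p = 0.00207). Every anesthetized mouse was below every wake mouse, and mouse 29 held 4.91 CPM. Homer1, a scaffold of metabotropic glutamate receptors, was at 99.9, 97.3, 97.0 and 80.8 CPM against 118 to 287 CPM (median 196, log2 fold change -1.03 ± 0.22 SE, adjusted p = 0.0112), and mouse 29, at 118 CPM, was the nearest wake mouse. Bdnf, the neurotrophin that sustains synaptic potentiation, was at 38.2, 25.8, 28.1 and 17.0 CPM against 37.5 to 81.3 CPM (median 45.8, log2 fold change -0.90 ± 0.24 SE, adjusted p = 0.0286). Mouse 25 lay just inside the wake range of Bdnf, above mouse 29 at 37.5 CPM, and the other 3 lay below it.

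Pcsk1, which cleaves neuropeptide precursors, was at 6.23, 5.75, 8.43 and 9.65 CPM against 11.0 to 34.4 CPM (median 23.6, log2 fold change -1.58 ± 0.33 SE, adjusted p = 0.0105). Nrn1, a membrane-anchored protein that promotes neurite growth, was at 43.1, 33.4, 33.6 and 27.6 CPM against 51.4 to 86.5 CPM (median 75.4, log2 fold change -1.10 ± 0.17 SE, adjusted p = 0.00213). Nptxr, a neuronal pentraxin receptor that gathers AMPA receptors, had a log2 fold change of -0.67 ± 0.14 (SE, adjusted p = 0.00913). These 3 did not overlap between groups, and mouse 29 was the lowest wake mouse for Pcsk1 and Nrn1, with 11.0 and 51.4 CPM. Against mouse 29 alone the log2 differences were -1.91 for Arc, -0.34 for Homer1, -0.52 for Bdnf, -0.58 for Pcsk1 and -0.60 for Nrn1.

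Output genes of the ERK cascade, most of which feed back on it, were counted next. Of 15 tested, 8 were lower (all genes, 6.59%) and the other 7 did not pass, with a median log2 fold change of -0.71. Etv5 (chr16:22381309-22439719), an ETS factor that fibroblast growth factor and ERK signalling induce, was at 18.9, 16.2, 16.4 and 19.6 CPM after ketamine-xylazine and at 42.8 to 62.2 CPM (median 51.8) in wake (log2 fold change -1.50 ± 0.13 SE, adjusted p = 0.000216). Spred2 (chr11:19924375-20024026), a feedback inhibitor of RAF activation, was at 82.1, 86.8, 88.3 and 84.9 CPM against 166 to 241 CPM (median 187, log2 fold change -1.20 ± 0.12 SE, adjusted p = 0.000247). In both genes the anesthetized mice lay close together and well apart from the wake mice, of which mouse 29 was the lowest, at 42.8 and 166 CPM. Dusp5, a nuclear phosphatase of ERK, was at 1.28, 0.929, 1.24 and 0.819 CPM against 2.72 to 7.08 CPM (median 4.82, log2 fold change -2.22 ± 0.29 SE, adjusted p = 0.00120), again with mouse 29, at 2.72 CPM, as the lowest wake mouse. Etv1 had a log2 fold change of -1.19 ± 0.21 (adjusted p = 0.00434) and Spry2, an inhibitor of receptor tyrosine kinase signalling, of -0.91 ± 0.16 (adjusted p = 0.00470), and Spry2 alone of these 5 overlapped between groups. Against mouse 29 alone the log2 differences were -1.27 for Etv5, -0.95 for Spred2, -1.29 for Dusp5 and -1.10 for Etv1.

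**Figure D2:**
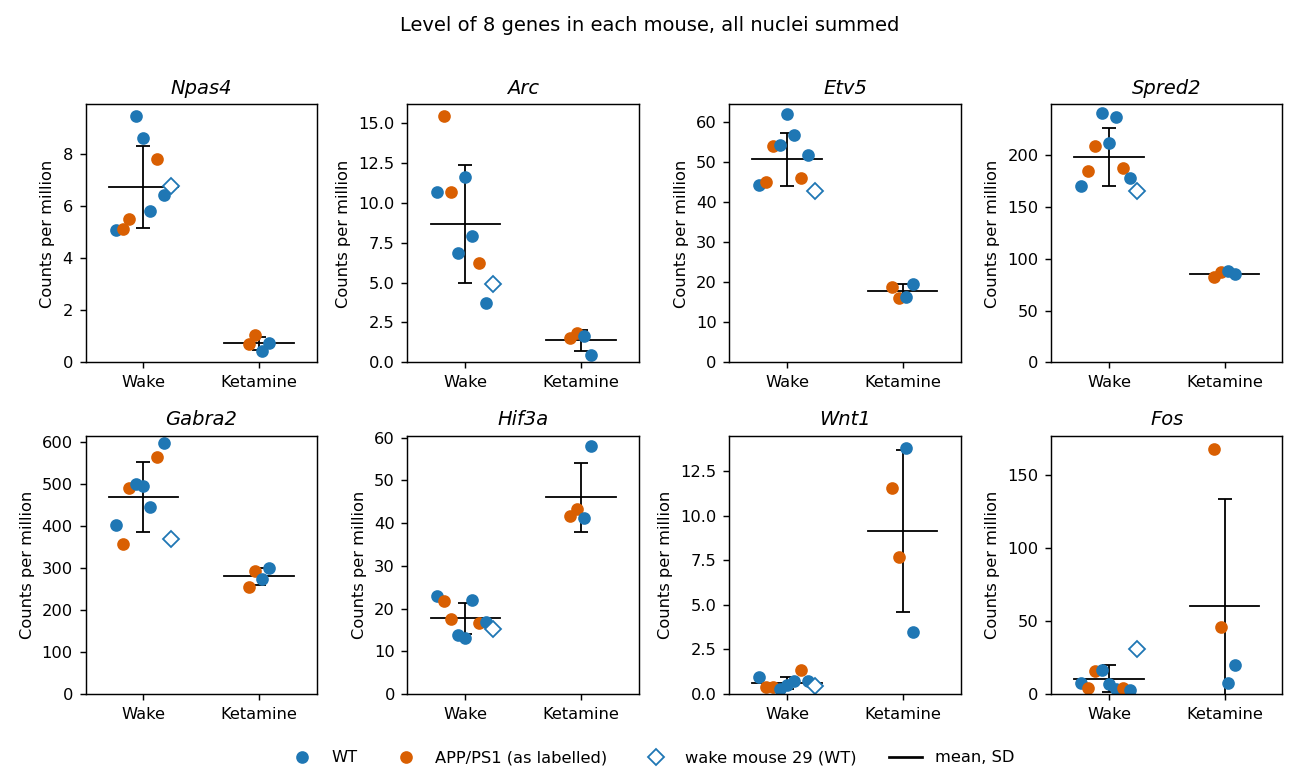
Level in CPM (y axis) of 8 genes in each of the 13 mice, wake on the left and ketamine-xylazine on the right of each panel, with WT and APP/PS1 mice in separate colours, mouse 29 as an open diamond, and the mean with its SD as a bar. The 4 ketamine-xylazine mice lie below all 9 wake mice for Npas4, Arc, Etv5 and Spred2, whereas Fos spreads widely within the anesthetized group.

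Promoter sequences of several lower genes are shown because immediate-early genes include textbook targets of CREB, which binds the cAMP response element TGACGTCA and its shorter core TGACG. In RefSeq promoters of GRCm38.p6, 250 bases before to 50 after the start of transcription, TGACG was present on either strand in 31.7% of the 13686 tested genes that had a promoter in the table. It was present in 38.7% of the 957 lower genes and in 26.9% of the 911 higher genes. The full TGACGTCA was in 3.1%, 4.60% and 1.87% of them, and every full match also holds the core on both strands. Among lower members, the core was present in 5 of 6 immediate-early factors, 4 of 5 effectors and 2 of 8 ERK output genes with a promoter. These shares are a description of letters in a window and were not tested. Starts of transcription here are those of RefSeq, whereas the gene bounds given above are those of GENCODE. By the GENCODE bounds the Npas4 stretch below lies within the gene, and so does most of the Spred2 stretch. Stretches of 60 bases that hold the core are given below 5′ to 3′ on the strand of the gene, with the core or its reverse complement, or the full element, in capitals: for Npas4 chr19:4990118-4990177, minus strand, -206 to -147 from the start, for Nr4a1 chr15:101266596-101266655, plus strand, -250 to -191, for Nr4a3 chr4:48045055-48045114, plus strand, -250 to -191, for Pcsk1 chr13:75089753-75089812, plus strand, -104 to -45, for Homer1 chr13:93303674-93303733, plus strand, -83 to -24, for Dusp5 chr19:53529063-53529122, plus strand, -82 to -23 and for Spred2 chr11:19924364-19924423, plus strand, -78 to -19.
Npas4: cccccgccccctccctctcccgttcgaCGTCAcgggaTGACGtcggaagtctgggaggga
Nr4a1: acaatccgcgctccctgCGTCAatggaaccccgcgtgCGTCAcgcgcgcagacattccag
Nr4a3: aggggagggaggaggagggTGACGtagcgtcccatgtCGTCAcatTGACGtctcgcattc
Pcsk1: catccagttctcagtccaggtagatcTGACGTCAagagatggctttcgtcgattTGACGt
Homer1: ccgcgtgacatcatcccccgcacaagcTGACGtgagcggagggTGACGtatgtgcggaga
Dusp5: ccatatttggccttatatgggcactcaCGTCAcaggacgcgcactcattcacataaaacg
Spred2: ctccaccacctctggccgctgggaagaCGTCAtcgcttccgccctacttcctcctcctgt
Nr4a3 has 3 cores in its stretch, Npas4, Nr4a1 and Homer1 have 2, Dusp5 and Spred2 have 1, and Pcsk1 has the full element followed by a further core. The Dusp5 stretch also opens with the CArG box letters CCATATTTGG and CCTTATATGG, which are not in capitals.

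Fos, Egr1 and Jun did not follow Npas4 and Arc. Fos, the classic immediate-early factor, was at 168, 45.7, 7.30 and 19.8 CPM in ketamine-xylazine mice 25 to 28 and at 2.84 to 30.9 CPM (median 6.73) in wake, with mouse 29 at 30.9 CPM (log2 fold change 2.14 ± 0.89 SE, adjusted p = 0.116). Mice 25 and 26 lay above all wake mice and mice 27 and 28 within them, so the anesthetized mice spread further than the difference between the groups. Egr1 was at 49.0, 13.9, 6.97 and 6.10 CPM against 6.43 to 15.7 CPM (median 10.2, log2 fold change 0.44 ± 0.47 SE, adjusted p = 0.548), again with mouse 25 far above the rest and mouse 29 at 13.8 CPM. Junb was at 26.3, 15.8, 10.2 and 12.2 CPM against 11.9 to 28.4 CPM (median 20.3, log2 fold change -0.41 ± 0.24 SE, adjusted p = 0.262), with mouse 29 at 17.4 CPM. Jun, named here after its values were seen, was the 1 immediate-early factor that was higher, at 36.1 to 175 CPM against 20.8 to 44.0 CPM (1.21 ± 0.32 on the log2 scale, adjusted p = 0.0263), with mouse 29 at 38.0 CPM.

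Fos, Jun and Egr1 were concentrated in a pair of clusters of nuclei that were left unnamed. Under 3 markers of the closest cell class were detected in each, 2 of fibroblasts in the larger and 1 of blood in the smaller. Markers of other classes were not counted for this rule. Their leading genes were Sfrp2, Vim, Col1a2 and Bnc2 in the larger (2477 nuclei, median 643 UMIs) and Tpm2 and Fn1 in the smaller (898 nuclei). Together they made up 26.5% of the nuclei of mouse 25, 3.57% of mouse 26, 4.66% of mouse 27, 10.4% of mouse 28, 4.46% of wake mouse 29 and 2.20% of wake mouse 10, and at most 0.647% of the others. The smaller cluster came mostly from 1 library: mouse 25 held 796 of its 898 nuclei. It made up 12.9% of the nuclei of mouse 25 and at most 0.647% of those of any other mouse. Fos was at 1185 and 731 CPM in these clusters and at 12.9 CPM in all other nuclei, and Egr1 at 281 and 219.8 against 10.9 CPM, and Jun at 1382 and 340.2 against 34.6 CPM. The summed fibroblast markers also ranged from 91.5 to 516 CPM after ketamine-xylazine and from 16.6 to 157 CPM in wake, and 2 of their 5 genes, Bnc2 and Col1a1, were higher. With the nuclei of both clusters left out, a setting chosen after seeing the data, Fos was at 50.4, 25.8, 5.37 and 11.1 CPM against 2.85 to 20.5 CPM (log2 fold change 1.15, adjusted p = 0.241), Egr1 turned to a log2 fold change of -0.29 (adjusted p = 0.559), Jun did not pass (adjusted p = 0.111), and Junb was lower (log2 fold change -0.78, adjusted p = 0.0374). Over all genes, 2552 passed without these nuclei. They included 2280 of the 2576 earlier calls that could still be tested, all 2576 in their earlier direction, and 8 of 25 immediate-early factors, 10 of 29 effectors and 8 of 15 ERK output genes were lower (all genes, 6.99%).

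**Figure D3:**
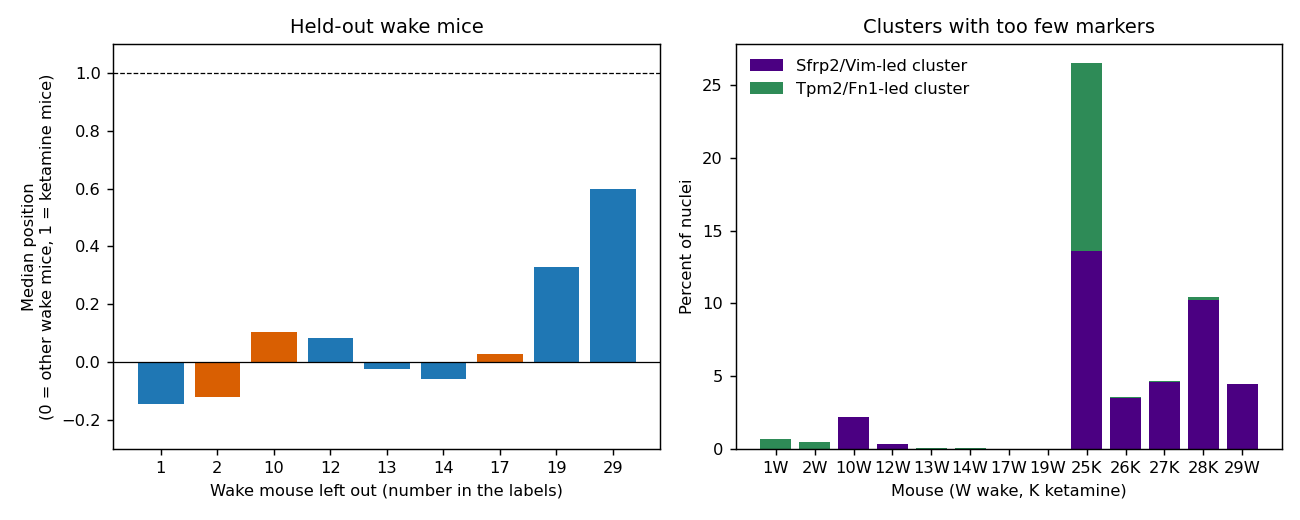
Left, the median position of each wake mouse between the other wake mice (0) and the ketamine-xylazine mice (1, dashed line) over the genes that passed with that mouse left out, in blue for WT and orange for APP/PS1: mouse 29 lies at 0.598. Right, the percent of each mouse's nuclei in the pair of unnamed clusters, stacked by cluster and with W for wake and K for ketamine-xylazine: mouse 25 holds 26.5%.

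Of the 10 genes that rose with the smallest p, the 9 given here were low in wake, with medians of at most 4.24 CPM. Wnt1, a secreted ligand of the Wnt pathway, was at 11.6, 7.72, 13.8 and 3.46 CPM against 0.299 to 1.35 CPM (median 0.499, log2 fold change 3.78 ± 0.39 SE, adjusted p = 0.000272). Hao1, a peroxisomal hydroxyacid oxidase best known from liver, was at 4.62, 4.12, 6.18 and 2.00 CPM against 0.0464 to 0.449 CPM (median 0.199, log2 fold change 4.26 ± 0.41 SE, adjusted p = 0.000247). No anesthetized mouse overlapped a wake mouse in either, and mouse 29 was inside the wake range for Wnt1 and Hao1, at 0.453 and 0.151 CPM.

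Prdm9, a histone methyltransferase that places meiotic crossovers, was at 8.40, 11.5, 17.6 and 9.56 CPM against 1.90 to 4.09 CPM (median 2.56, log2 fold change 2.08 ± 0.22 SE, adjusted p = 0.000358), and Tigit, an inhibitory receptor of lymphocytes, at 12.0, 9.46, 16.4 and 4.64 CPM against 0.679 to 2.49 CPM (median 1.16, log2 fold change 3.14 ± 0.35 SE, adjusted p = 0.000484). Ccdc81 was at 24.8, 23.9, 29.3 and 12.7 CPM against 2.77 to 6.90 CPM (median 4.24, log2 fold change 2.43 ± 0.24 SE, adjusted p = 0.000247). In mouse 29 these 3 were at 3.92, 2.49 and 4.76 CPM. Abcc2, an export pump of organic anions, had a log2 fold change of 2.30 ± 0.23 from a wake median of 0.362 CPM. The predicted genes Gm12503, Gm49735 and Gm44577 rose by 3.25, 3.08 and 2.77 on the log2 scale. None of these 9 overlapped between the groups, each passed in all alternative settings but the block on runs, and the differences against mouse 29 alone ranged from 1.49 for Gm44577 to 4.00 for Hao1 on the log2 scale.

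The genes that fell with the smallest p included, beside Npas4, Etv5, Spred2 and Dusp5, Map6, Hcrtr2 and Npy1r. Map6, which stabilizes microtubules against cold, was at 33.8, 42.4, 44.4 and 51.6 CPM against 70.2 to 87.4 CPM (median 82.2, log2 fold change -0.88 ± 0.11 SE, adjusted p = 0.000829). Hcrtr2, a receptor of the wake-promoting peptide orexin, was at 5.51, 4.18, 3.82 and 4.55 CPM against 9.13 to 17.8 CPM (median 13.3, log2 fold change -1.56 ± 0.20 SE, adjusted p = 0.00103). Npy1r, a receptor of neuropeptide Y, was at 5.84, 6.21, 5.39 and 6.01 CPM against 10.8 to 16.4 CPM (median 12.4, log2 fold change -1.17 ± 0.15 SE, adjusted p = 0.00120). In all 3 the groups did not overlap, with mouse 29 at 70.2, 10.5 and 11.2 CPM. Elovl6, a fatty acid elongase, fell by 0.87, the histone gene Hist1h2be by 0.95 and the predicted gene Gm12940 by 1.75 on the log2 scale.

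A few genes that glucocorticoids induce were higher. Of 17 tested, 4 were higher (all genes, 6.84%) and the other 13 did not pass, with a median log2 fold change of 0.30, and without the pair of unnamed clusters 3 were higher (all genes, 6.28%). Hif3a (chr7:17031507-17062427), a hypoxia-inducible factor subunit that glucocorticoids raise, was at 41.7, 43.3, 41.2 and 58.2 CPM against 13.1 to 22.8 CPM (median 16.9, log2 fold change 1.38 ± 0.16 SE, adjusted p = 0.000605). Klf9, a glucocorticoid-responsive zinc finger factor, was at 160.0, 133, 142 and 120.3 CPM against 79.2 to 106 CPM (median 90.0, log2 fold change 0.57 ± 0.09 SE, adjusted p = 0.00327), and Plin4, a lipid droplet protein, at 7.62, 5.17, 4.38 and 7.38 CPM against 1.45 to 4.94 CPM (median 2.42, log2 fold change 1.29 ± 0.29 SE, adjusted p = 0.0130). Mouse 29 lay within the other wake mice for all 3, at 15.3, 85.2 and 2.42 CPM. Hif3a and Klf9 did not overlap between groups, Plin4 overlapped through mouse 19, and the log2 differences from mouse 29 alone were 1.57, 0.70 and 1.27. Fkbp5, a co-chaperone of the glucocorticoid receptor, was at 148, 98.1, 151 and 139 CPM against 73.7 to 125 CPM (median 96.2, log2 fold change 0.45 ± 0.14 SE, adjusted p = 0.0474), passed in 10 of 24 alternative settings, and did not pass without the unnamed clusters (adjusted p = 0.188). Per1, which is both a clock gene and a glucocorticoid target, was at 52.0, 25.7, 28.1 and 24.1 CPM against 17.5 to 31.7 CPM (median 27.1) and did not pass (log2 fold change 0.30 ± 0.20 SE, adjusted p = 0.333).

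Of the genes for the receptors the drugs bind, few differed. Of 7 NMDA receptor subunits, 1 was higher (all genes, 6.84%), Grin2d, at 16.8, 13.7, 19.7 and 18.6 CPM against 9.84 to 15.5 CPM (median 11.8, log2 fold change 0.55 ± 0.13 SE, adjusted p = 0.0152), with mouse 26 inside the wake range and mouse 29, at 15.5 CPM, as the highest wake mouse. The obligatory subunit Grin1 was at 372, 440.1, 532 and 403 CPM against 233 to 496 CPM (median 369.9, log2 fold change 0.30 ± 0.17 SE, adjusted p = 0.250), and Grin2a and Grin2b had log2 fold changes of -0.31 ± 0.18 and -0.16 ± 0.19 (adjusted p = 0.249 and 0.597). The 8 adrenergic receptors tested did not pass. Adra2a, a target of xylazine, was at 0.890, 0.522, 0.449 and 0.546 CPM against 0.604 to 1.99 CPM (median 0.997, log2 fold change -1.05 ± 0.38 SE, adjusted p = 0.0770), a level of few UMIs per library. The 9 AMPA and kainate receptor subunits did not pass over all nuclei either. Within classes, defined below, 1 of 9 was higher in DG granule-like nuclei (all genes, 6.96%) and 0 of 9 passed in CA1-like nuclei. The higher one was Gria2, named here after its values were seen.

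GABA-A receptor subunits were lower in 4 of 12 genes (all genes, 6.59%), and the other 8 did not pass. Without the unnamed clusters 3 of 12 were lower (all genes, 6.99%). Gabra5, the alpha subunit of extrasynaptic receptors in the hippocampus, was at 57.1, 67.4, 68.2 and 58.2 CPM against 91.9 to 166 CPM (median 98.7, log2 fold change -0.80 ± 0.15 SE, adjusted p = 0.00709), and Gabra2, of receptors at the axon initial segment, at 254, 292, 274 and 299 CPM against 356 to 597 CPM (median 489.8, log2 fold change -0.74 ± 0.14 SE, adjusted p = 0.00737). In both the groups did not overlap, and mouse 29 held 97.4 and 369 CPM. Gabra4 fell by 0.44 on the log2 scale (adjusted p = 0.0284).

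Of 24 genes of mTOR signalling and translation control, a pathway that ketamine acts on at the protein level, 3 were lower and 1 was higher (all genes, 6.59% and 6.84%). Mtor and Eef2k, the kinase of elongation factor eEF2, did not pass. Mtor was at 57.8, 60.0, 59.1 and 62.1 CPM against 52.0 to 70.9 CPM (median 58.4, log2 fold change 0.04 ± 0.09 SE, adjusted p = 0.811) and Eef2k at 42.4, 43.5, 51.0 and 46.7 CPM against 50.8 to 65.4 CPM (median 53.7, log2 fold change -0.25 ± 0.09 SE, adjusted p = 0.0722). Eif4ebp2, a repressor of cap-dependent translation in neurons, was at 25.5, 19.9, 18.9 and 20.1 CPM against 23.3 to 48.4 CPM (median 39.0, log2 fold change -0.90 ± 0.18 SE, adjusted p = 0.00759), and mouse 29, at 23.3 CPM, was the lowest wake mouse and inside the range of the anesthetized ones. Ddit4l, an inhibitor of mTORC1, fell by 1.28 and Akt2 by 0.44, and Tsc1 rose by 0.30 on the log2 scale, the last in only 7 of 24 alternative settings.

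Among clock, temperature, oxygen and metabolic genes, counts over all nuclei were low. Over all genes, 6.59% were lower and 6.84% higher. Of 19 clock genes 1 was lower. Of 14 hypoxia-induced genes 1 was lower. Of 20 heat shock and cold-inducible genes 2 were lower and 1 was higher. Of 16 insulin and FOXO genes 1 was lower and 1 was higher. Without the unnamed clusters 4 of the 20 heat shock and cold-inducible genes were lower (all genes, 6.99%). The lower clock gene was Per2, a repressor of the clock that CREB also induces, at 18.0, 15.4, 12.9 and 14.7 CPM against 20.0 to 42.4 CPM (median 33.7, log2 fold change -1.15 ± 0.18 SE, adjusted p = 0.00264). Mouse 29, at 20.0 CPM, was the wake mouse nearest to the anesthetized ones. Rbm3, an RNA-binding protein that rises with cooling, was at 29.4, 27.6, 14.9 and 21.4 CPM against 25.7 to 82.1 CPM (median 57.6, log2 fold change -1.48 ± 0.26 SE, adjusted p = 0.00477). Here mouse 29, at 25.7 CPM, lay inside the anesthetized range, and the log2 difference from it alone was -0.19. P4ha1, a collagen prolyl hydroxylase that hypoxia induces, was at 56.2, 75.2, 67.1 and 84.7 CPM against 111 to 197 CPM (median 166, log2 fold change -1.15 ± 0.17 SE, adjusted p = 0.00195). Mouse 29, at 111 CPM, was the lowest wake mouse.

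Hspa5, a chaperone of the endoplasmic reticulum, was at 93.2, 115, 119 and 201 CPM against 45.7 to 115 CPM (median 63.9, log2 fold change 0.86 ± 0.25 SE, adjusted p = 0.0410), and Txnip, which restrains glucose uptake, at 86.3, 48.6, 30.6 and 91.4 CPM against 3.38 to 45.3 CPM (median 12.9, log2 fold change 1.94 ± 0.59 SE, adjusted p = 0.0458). Both overlapped between groups, with mouse 29 as the highest wake mouse, at 115 and 45.3 CPM, and without the unnamed clusters neither passed (adjusted p = 0.275 and 0.0903). Dnajb4, a heat shock protein, fell by 0.57 and Irs2, an insulin receptor substrate, by 0.57 on the log2 scale. Within cell classes, defined below, heat shock and cold-inducible genes were lower in 4 of 16 tested in DG granule-like (all genes, 7.6%), and 3 of 17 in CA1-like nuclei (6.48%). They were lower in 4 of 15 in CA3-like (3.43%), 5 of 15 in subicular/cortical-like (3.68%) and 3 of 15 in interneuron-like nuclei (3.06%). The counts were 2 of 16 in oligodendrocyte-like (2.67%), 1 of 15 in OPC-like (0.718%) and 1 of 16 in astrocyte-like nuclei (2.76%). Hspa8, a constitutive chaperone named here after its values were seen, was lower in the 5 neuronal classes and did not pass over all nuclei (log2 fold change -1.39 ± 0.47 SE, adjusted p = 0.0651). Of 18 clock genes tested in astrocyte-like nuclei 5 were higher (all genes, 4.71%). They included Bhlhe40, which is also on the list of immediate-early factors. In each of the other classes at most 1 was higher. Of 17 cyclic nucleotide phosphodiesterases 1 was lower and 1 was higher over all nuclei, near the 6.59% and 6.84% of all genes. Pde7b was lower (log2 fold change -0.49 ± 0.10) and Pde8a was higher (0.93 ± 0.22), both of them enzymes that degrade cyclic AMP. Pde8a in mouse 29 was at 72.8 CPM, within the 77.2, 68.5, 78.7 and 81.5 CPM of the anesthetized mice.

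Ribosomal protein genes were counted with and without the unnamed clusters. Of 85 cytosolic ribosomal protein genes, 14 were higher (all genes, 6.84%), and without the unnamed clusters 6 were higher and 1 was lower (all genes, 6.28% and 6.99%), with the median log2 fold change going from 0.51 to 0.02. Their summed level was 6823 to 8228 CPM after ketamine-xylazine, 1919.7 to 6256 CPM in wake and 5992 CPM in mouse 29. Rpl5 was at 168, 157, 187 and 158 CPM against 55.8 to 103 CPM (median 85.6, log2 fold change 0.97, adjusted p = 0.00173) and did not pass without those clusters (adjusted p = 0.0700), with mouse 29 as the highest wake mouse, at 103 CPM. Rpl15, Rps12, Rps18 and Rack1 had log2 fold changes of 1.05, 1.26, 1.37 and 1.53. Each of them passed in 23 of 24 alternative settings, all but the block on runs, and so also without the unnamed clusters. Their smallest log2 fold changes over these settings were 0.32, 0.71, 0.16 and 0.32. Rpl15 overlapped between groups, with wake mouse 29 at 123 CPM and ketamine-xylazine mouse 28 at 115 CPM. For Rps18 mouse 29, at 78.9 CPM, stood apart from the other wake mice.

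Gm42418 and AY036118, whose counts take up reads of ribosomal RNA, were higher along with Lars2 and Cmss1. Gm42418 was at 14458, 2687, 7242 and 1649 CPM against 396 to 1656 CPM (median 658, log2 fold change 2.83, adjusted p = 0.00540), with mouse 28 inside the wake range, mouse 29, at 1656 CPM, as the highest wake mouse, and mouse 25 far above all others. The summed level of 9 such genes was 3291 to 23708 CPM after ketamine-xylazine and 1622 to 3269 CPM in wake, where mouse 29 was again the highest. AY036118, Lars2 and Cmss1 had log2 fold changes of 2.45, 1.97 and 3.02, each highest in mouse 25. In the pair of unnamed clusters, 26.5% of the nuclei of mouse 25, Gm42418 was at 67578.5 and 23510 CPM, against 1750 CPM in all other nuclei. AY036118, Lars2 and Cmss1 were also higher there than in all other nuclei. Without those clusters 4 of the 9 genes were higher (all genes, 6.28%). Of 13 genes of the mitochondrial genome, 3 were lower (all genes, 6.59%), mt-Cytb with a log2 fold change of -3.52, mt-Nd4 with -2.90 and mt-Nd2 with -2.39. These 3 passed in 11, 12 and 8 of 24 alternative settings. Without the unnamed clusters 6 of 13 were lower (all genes, 6.99%), and within classes 10 of 12 tested in DG granule-like (7.6%), 7 of 11 in CA1-like (6.48%), 6 of 11 in CA3-like (3.43%), 8 of 9 in subicular/cortical-like (3.68%) and 6 of 11 in interneuron-like nuclei (3.06%). In glia they were lower in 3 of 11 in oligodendrocyte-like (2.67%), 1 of 9 in OPC-like (0.718%) and 4 of 12 in astrocyte-like nuclei (2.76%), the last without mice 1 and 2. Mice 1 and 2 held 1150.0 and 1163 CPM of mt-Cytb. In wake mt-Cytb ran from 20.8 CPM, in mouse 29, to 1163 CPM, and the anesthetized mice, at 26.3, 28.6, 22.7 and 47.3 CPM, lay at the low end of that range and above mouse 29, and with runs of mouse numbers entered as a block all 3 differences turned positive. Of 84 nuclear oxidative phosphorylation genes, 3 were lower, Sdhc, Uqcrfs1 and Sdhb, with log2 fold changes of -0.50, -1.30 and -0.59, where 6.59% of all genes were lower. The median log2 fold change over the 84 was -0.62, with 66 of them below 0 (median of all genes, -0.02). Without the unnamed clusters 8 of 84 were lower (all genes, 6.99%), and Sdhb passed in 10 of 24 alternative settings.

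Of 10 reactive glia genes tested, 2 were higher (all genes, 6.84%). In astrocyte-like nuclei, defined below, 5 of 8 tested were higher (all genes, 4.71%): Cd44, Gfap, Nfkbia, Osmr and Vim, of which Gfap, Nfkbia and Osmr are named after their values were seen. Cd44, a hyaluronan receptor of reactive astrocytes, was at 8.57, 19.3, 13.3 and 11.8 CPM against 1.60 to 6.01 CPM (median 2.57, log2 fold change 2.08 ± 0.32 SE, adjusted p = 0.00244), with no overlap and mouse 29 at 4.60 CPM. Vim, an intermediate filament protein that also led the larger unnamed cluster, was at 400.1, 717, 936 and 812 CPM against 9.13 to 409.6 CPM (median 27.4, log2 fold change 3.02 ± 0.89 SE, adjusted p = 0.0396). Mouse 29, at 409.6 CPM, lay inside the anesthetized range, and Vim passed in 9 of 23 alternative settings.

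Nuclei were clustered and named from marker genes, as DG granule-like, CA1-like and so on, to see where these differences lay. In the 8 classes with enough nuclei, 2043 of 14031 genes tested passed in DG granule-like nuclei (14.6%), 1659 of 13221 in CA1-like nuclei (12.5%), 801 of 11716 in CA3-like nuclei (6.84%), 564 of 8797 in subicular/cortical-like excitatory nuclei (6.41%) and 710 of 11472 in interneuron-like nuclei (6.19%). In glia, 821 of 10994 passed in astrocyte-like nuclei (7.47%, in 11 libraries), 596 of 9447 in oligodendrocyte-like nuclei (6.31%) and 106 of 6128 in oligodendrocyte precursor (OPC)-like nuclei (1.73%). In the order just given, genes that were higher made up 6.96%, 6.07%, 3.41%, 2.73%, 3.13%, 4.71%, 3.64% and 1.01% of the genes tested, and genes that were lower made up 2.76%, 2.67% and 0.718% in the 3 glial classes. The classes were of unequal size, from 18634 wake and 4624 anesthetized DG granule-like nuclei to 1852 and 731 OPC-like ones. The astrocyte-like class was compared without mice 1 and 2, which held 243 and 9 such nuclei. A further cluster of 1720 nuclei was closest to astrocytes, and all 7 astrocyte markers were detected in it. It stayed unnamed because its leading genes held 1 listed marker of another class, Rorb, and 0 of the astrocyte markers. Of its nuclei, 89.4% came from mice 1 and 2. Mouse 29 lay between the groups in each class, at a median position of 0.386 (astrocyte-like) to 0.603 (subicular/cortical-like). Different clusters held most of the DG granule-like class in the groups: 50.4% of wake nuclei fell in a cluster led by Stxbp6 and Plekha2 and 50.6% of anesthetized nuclei in a cluster led by Sema5a and Glis3. Without mice 14 and 17, 1360 genes passed in DG granule-like, 448 in CA3-like, 274 in interneuron-like and 371 in astrocyte-like nuclei, and without mice 1 and 2, 1165 in DG granule-like and 430 in CA3-like nuclei. Mouse 27 moved the counts the most in each class, to 531 in CA1-like and 439 in DG granule-like nuclei without it.

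The same lists were counted within the neuronal classes. Immediate-early factors were lower in 12 of 18 tested in CA1-like nuclei (all genes, 6.48% lower), 5 of 16 in CA3-like nuclei (3.43%), 6 of 13 in subicular/cortical-like nuclei (3.68%), 1 of 9 in interneuron-like nuclei (3.06%) and 3 of 17 in DG granule-like nuclei (7.6%). ERK output genes were lower in 8 of 11 in CA1-like, 6 of 8 in CA3-like, 5 of 6 in subicular/cortical-like, 4 of 6 in interneuron-like and 4 of 9 in DG granule-like nuclei. Effectors were lower in 9 of 24 in CA1-like, 5 of 23 in CA3-like, 6 of 18 in subicular/cortical-like, 3 of 21 in interneuron-like and 5 of 26 in DG granule-like nuclei. Of the effectors, Inhba, the activin A subunit and named here after its values were seen, was higher in DG granule-like, CA1-like, CA3-like and interneuron-like nuclei, and Rasgrp1, likewise named after its values were seen, in CA3-like nuclei.

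In CA1-like nuclei Etv5 and Spred2 had the smallest p of all lower genes. Etv5 was at 8.71, 14.0, 6.76 and 12.2 CPM in mice 25 to 28 and at 63.5 to 101 CPM in wake (log2 fold change -2.86 ± 0.20 SE, adjusted p = 2.2e-06), and Spred2 at 97.2, 92.3, 81.1 and 88.2 CPM against 215 to 310.4 CPM (log2 fold change -1.53 ± 0.12 SE, adjusted p = 4.1e-06). Mouse 29, at 66.2 and 251 CPM, was within the other wake mice for both. Npas4 was at 0.917, 2.38, 0 and 2.03 CPM against 9.80 to 19.2 CPM, with mouse 29 at the top of the wake range with 19.2 CPM (log2 fold change -3.18 ± 0.41 SE, adjusted p = 0.000567). Arc was at 3.67, 2.38, 2.46 and 0.678 CPM against 8.68 to 35.6 CPM (log2 fold change -2.98 ± 0.41 SE, adjusted p = 0.000724). Egr1, which did not pass over all nuclei, was lower here, at 11.5, 4.09, 6.14 and 4.07 CPM against 10.1 to 21.1 CPM (log2 fold change -1.18 ± 0.31 SE, adjusted p = 0.0233), with mouse 25 alone inside the wake range. Fos was at 23.8, 10.9, 0.614 and 6.10 CPM against 4.11 to 17.3 CPM and did not pass in any of the 7 classes in which it was tested (smallest adjusted p = 0.0721, in astrocyte-like nuclei).

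In CA3-like, subicular/cortical-like and interneuron-like nuclei Etv5 and Spred2 were again among the 3 lower genes with the smallest p. Etv5 was at 19.1, 18.1, 17.9 and 29.9 CPM against 121 to 218 CPM in subicular/cortical-like nuclei and at 8.02, 3.22, 7.07 and 8.79 CPM against 29.9 to 54.0 CPM in interneuron-like nuclei, with log2 fold changes of -2.81 and -2.79. In CA3-like nuclei Npas4 was at 0 UMIs in all 4 anesthetized mice and at 1.63 to 11.4 CPM in wake, with mouse 29 the lowest. In OPC-like nuclei, where Etv5 and Spred2 are also expressed, they were at 220.2, 171, 221 and 236 CPM against 107 to 291 CPM and at 188, 139.9, 197 and 159 CPM against 102 to 215 CPM, inside the wake range (log2 fold change 0.14 ± 0.23 SE, adjusted p = 0.783 for Etv5). Hsd17b12, an enzyme of very long chain fatty acid synthesis, was among the 3 lower genes with the smallest p in CA1-like nuclei (3.69 to 7.80 CPM after ketamine-xylazine and 20.2 to 38.9 CPM in wake) and in interneuron-like nuclei (16.8 to 26.4 CPM after ketamine-xylazine and 51.2 to 100.1 CPM in wake). Klhl10 was among the 3 higher genes with the smallest p in CA1-like, subicular/cortical-like and interneuron-like nuclei, at 57.3 to 101 CPM after ketamine-xylazine and 18.8 to 43.6 CPM in wake in the first. In DG granule-like nuclei the leading lower genes were Nrp1, a receptor of semaphorins (161 to 189 CPM after ketamine-xylazine and 314 to 484 CPM in wake), Gabra5 (54.9 to 64.8 CPM after ketamine-xylazine and 105 to 149 CPM in wake) and Gm12940, and the leading higher genes were Prdm9, Slc6a20a and Tigit. Gm12940 was lower in all 8 classes.

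**Figure D4:**
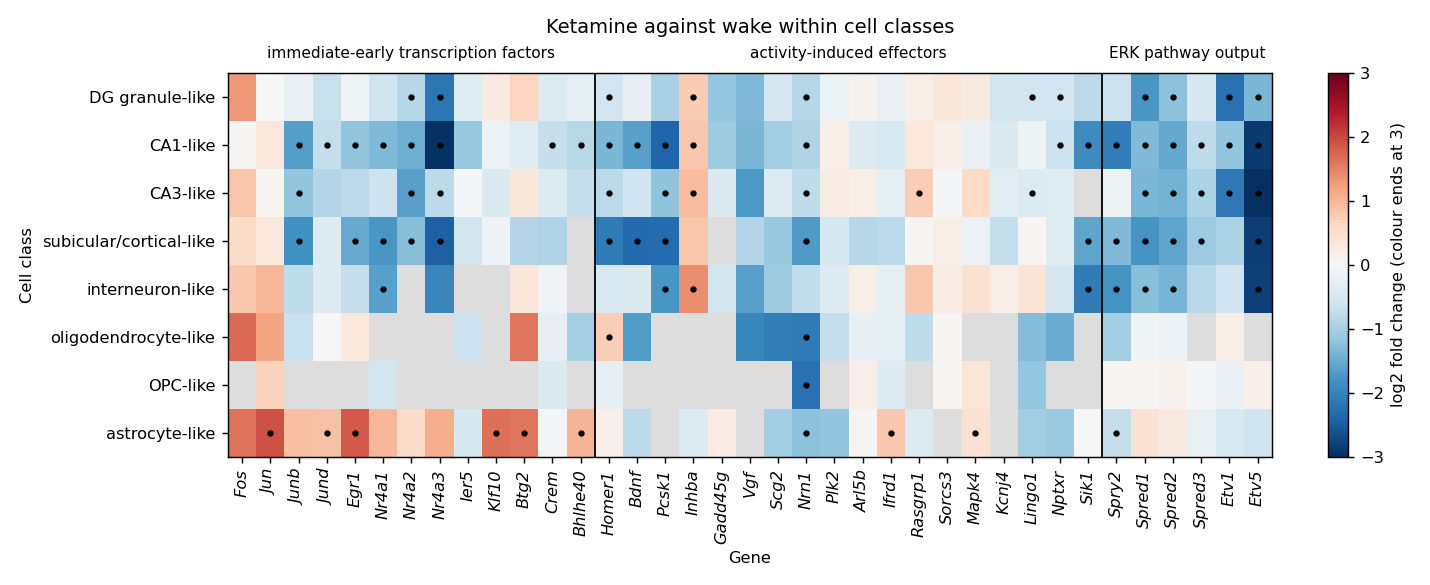
Log2 fold change of ketamine-xylazine against wake (blue for lower and red for higher, with colours ending at 3 in either direction) of 37 immediate-early, effector and ERK output genes (columns) tested in at least 5 of the 8 cell classes (rows), with a dot where the adjusted p was below 0.05 and grey where a gene was not tested. The 5 neuronal rows are mostly blue and the astrocyte-like row is mostly red over the immediate-early factors.

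In astrocyte-like nuclei 6 of 14 immediate-early factors were higher (all genes, 4.71% higher): Bhlhe40, Btg2, Egr1, Jun, Jund and Klf10. Egr1 was at 62.1, 71.3, 43.8 and 10.2 CPM after ketamine-xylazine and at 2.54 to 25.1 CPM in wake (log2 fold change 1.84 ± 0.49 SE, adjusted p = 0.0358), with mouse 28 inside the wake range. Genes that led the larger unnamed cluster were also present in these nuclei: Vim was at 284, 777, 1290.3 and 856 CPM against 49.6 to 379 CPM (log2 fold change 2.11 ± 0.50 SE, adjusted p = 0.0223), and Sfrp1 at 5.45, 1.93, 64.6 and 209 CPM against 3.53 to 96.5 CPM (adjusted p = 0.318). The log2 fold change of Vim was 2.11 to 2.75 in the 8 classes, of which 2 passed, and that of Sfrp1 1.84 to 3.51 in the 7 classes where it was tested, of which 0 passed in edgeR and 3 had an unadjusted p under 0.05. The groups overlapped for both genes in each of these classes. The part of RNA from those clusters in the class levels was not tested. The difference between the 2 classes was tested directly, with the mouse as a block, in 11 mice, a test added after seeing the data. Of 13001 genes, 778 (5.98%) differed, 534 with a higher ketamine-xylazine effect in astrocyte-like and 244 in CA1-like nuclei. Of the 9671 genes that passed the filter on low counts in each of the classes alone, 715 differed (7.39%), and the effect was higher in astrocyte-like nuclei for 491 (5.08%). Among them were 11 of 13 immediate-early factors, 4 of 14 effectors and 7 of 8 ERK output genes so measured, and the others of these 13, 14 and 8 did not pass. The log2 difference of the effects, with its SE, was 3.59 ± 0.50 for Egr1 (adjusted p = 0.000105), 2.74 ± 0.36 for Junb, 2.61 ± 0.54 for Nr4a1, 2.36 ± 0.34 for Etv5 and 1.85 ± 0.15 for Spred2 (adjusted p = 1.4e-07).

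Of 12 glucocorticoid-induced genes tested in CA1-like nuclei 1, Hif3a, was higher (all genes, 6.07%). The 1 that was lower (all genes, 6.48%) was Sgk1, named here after its values were seen. Of 15 tested in DG granule-like nuclei 1, Klf9, was higher (all genes, 6.96%) and 0 were lower (7.6%). Of those described above over all nuclei, Hif3a, Klf9, Plin4 and Per1 were higher in oligodendrocyte-like nuclei (all genes, 3.64%). Fkbp5 did not pass there, and Per1 did not pass in the other classes in which it was tested. Klf9 was also higher in astrocyte-like nuclei (all genes, 4.71%) and Fkbp5 in interneuron-like nuclei (3.13%). Hif3a and Fkbp5, described above over all nuclei, were also higher in astrocyte-like nuclei. Eftud2, a GTPase of the spliceosome, ran at 202 to 448 CPM after ketamine-xylazine and 36.4 to 62.2 CPM in wake, and Poln, a translesion DNA polymerase, at 54.5 to 141 CPM after ketamine-xylazine and 1.72 to 13.0 CPM in wake. Hif3a was at 461, 478, 498 and 618 CPM against 137 to 248 CPM (log2 fold change 1.50 ± 0.16 SE, adjusted p = 0.000263), and Fkbp5 at 121, 55.9, 100.1 and 151 CPM against 7.62 to 43.0 CPM (log2 fold change 2.21 ± 0.37 SE, adjusted p = 0.00278). No anesthetized mouse overlapped the wake mice in these 4 genes, and mouse 29 was at 177 CPM of Hif3a and 33.0 CPM of Fkbp5. Kcnj3, a G protein-gated potassium channel (37.5 to 63.6 CPM after ketamine-xylazine and 133 to 180.5 CPM in wake), St6galnac5, a sialyltransferase, and Angpt1, a ligand of an endothelial receptor tyrosine kinase (61.0 to 69.7 CPM after ketamine-xylazine and 107 to 189 CPM in wake), led the lower genes. In oligodendrocyte-like nuclei Garnl3 (101 to 202 CPM after ketamine-xylazine and 19.0 to 49.5 CPM in wake), Itgad and Fanca led the higher genes, and Rnf220, a ubiquitin ligase (903 to 1164 CPM after ketamine-xylazine and 1827 to 2853 CPM in wake), and Fam168a the lower ones. OPC-like nuclei were led by 4930592A05Rik, Gm10125 and Prg4 among the higher and by Mylip, Ncam2 and Tmem175 among the lower genes. Prg4 was also at 848 and 505 CPM in the pair of unnamed clusters, against 11.8 CPM in all other nuclei. The part of their RNA in the OPC-like level was not tested.

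The response was then compared between genotypes as labelled. In WT mice 174 of 19801 genes passed (0.879%), and in APP/PS1 mice 81 (0.409%), with 2 anesthetized mice each. Npas4, Etv5 and Spred2 were lower in both. The log2 fold change of Npas4 was -3.54 ± 0.41 (adjusted p = 0.00431) in WT and -2.79 ± 0.38 (adjusted p = 0.0232) in APP/PS1, that of Etv5 -1.53 ± 0.18 (adjusted p = 0.00550) in WT and -1.46 ± 0.19 (adjusted p = 0.0232) in APP/PS1 and that of Spred2 -1.21 ± 0.17 (adjusted p = 0.0115) in WT and -1.20 ± 0.18 (adjusted p = 0.0293) in APP/PS1. Tested directly, the effect differed between genotypes for 0 genes in edgeR (0.0%), with 336 of 19801 at an unadjusted p under 0.05, and for 3 in DESeq2: Igfbp5, Ltbp1 and Fbln1, the last named after its values were seen.

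The 3 genes with the smallest interaction p were Ltbp1, Igfbp5 and Sfrp1. Ltbp1, which binds latent TGF-beta, was at 11.6 and 13.4 CPM in the APP/PS1 and 35.8 and 54.3 CPM in the WT ketamine-xylazine mice and at 10.1 to 15.2 CPM (median 12.2) in wake, with an interaction of -1.79 ± 0.31 on the log2 scale (adjusted p = 0.680 in edgeR). Igfbp5, a binding protein of insulin-like growth factors, was at 62.0 and 28.2 against 468 and 424 CPM, and Sfrp1, a Wnt antagonist, at 1.61 and 1.80 against 41.0 and 303 CPM. The WT pair was high and the APP/PS1 pair low in each, and Sfrp1 and Sfrp2 also lead the larger unnamed cluster. That cluster made up 13.6% and 3.52% of the nuclei of the APP/PS1 mice 25 and 26 and 4.62% and 10.2% of those of the WT mice 27 and 28. Its share was highest in mouse 25, where Sfrp1 was lowest of the 4. Whether that cluster bears on the levels of these 3 genes was not tested. Over both genotypes, Igfbp5 was higher in all 8 cell classes, with overlapping groups in each. Without mice 14 and 17, 51 genes passed in WT and 0 in APP/PS1 mice, and without mice 1 and 2, 33 and 0 (4023 and 2878 genes in APP/PS1 mice had an unadjusted p under 0.05, and DESeq2 called 995 over all mice). Without single mice the counts ranged from 17, without mouse 28, to 582, without mouse 29, in WT, and from 0, without mouse 2, 10 or 25, to 220, without mouse 29, in APP/PS1.

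Against the 7 mice under isoflurane, 1975 of 19684 genes differed (10.0%) after ketamine-xylazine. This comparison shares its 4 anesthetized mice with the one above, and 0 isoflurane mice carry numbers of their run, so run and drug cannot be told apart here. Prnp was at 68.3 and 100.5 CPM in isoflurane mice 11 and 20, labelled APP/PS1, against 281 and 311 CPM in the other APP/PS1 isoflurane mice. Without mice 11, 14, 17 and 20, a setting chosen after seeing the data, 2760 genes differed. The isoflurane mice had Npas4 at 1.38 to 2.61 CPM, Arc at 0.954 to 2.73 CPM, Etv5 at 17.8 to 32.8 CPM and Spred2 at 80.1 to 167 CPM. Npas4 was lower after ketamine-xylazine than under isoflurane (log2 fold change -1.20 ± 0.28, adjusted p = 0.0133), but did not pass without mouse 25 or 27 (adjusted p = 0.0527 and 0.0549), and the difference was -0.45 ± 0.40, adjusted p = 0.493 for Arc, -0.47 ± 0.17, adjusted p = 0.0744 for Etv5 and -0.48 ± 0.17, adjusted p = 0.0680 for Spred2, on the same scale. Etv5 and Spred2 passed without mice 1 to 4 (-0.61 and -0.65, adjusted p = 0.0187 and 0.00889), without mouse 3 (adjusted p = 0.0335 and 0.0205) and without mouse 4 (adjusted p = 0.0456 and 0.0357). None of the ketamine-xylazine mice reached the isoflurane range of Npas4, whereas the ranges of Arc, Etv5 and Spred2 overlapped. Fos, which ran at 0.489 to 10.3 CPM under isoflurane, was higher (4.50 ± 0.93, adjusted p = 0.00657). Mouse 27, at 7.30 CPM, lay inside the isoflurane range, and without mouse 25, the highest, the log2 difference was 3.22 ± 0.83 (adjusted p = 0.0397). Hif3a, at 19.1 to 61.8 CPM under isoflurane, had a log2 difference of 0.16 ± 0.25, adjusted p = 0.729.

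Shares of nuclei per class were compared by a 2-sided exact permutation test over mice, for 14 classes. DG granule-like nuclei made up 18.9% ± 4.71 (SD, n = 4) of nuclei after ketamine-xylazine and 27.7% ± 7.62 (SD, n = 9) in wake (exact permutation p = 0.0448, adjusted p = 0.313). CA3-like nuclei made up 3.52% ± 1.18 (SD, n = 4) and 6.43% ± 2.40 (SD, n = 9) (exact permutation p = 0.0168, adjusted p = 0.235), and CA1-like nuclei 9.64% ± 3.28 and 13.8% ± 5.00. No class passed after adjustment, and 2 of 14 had an unadjusted exact permutation p under 0.05. The numbers of mice bound how small this p can be. The unnamed clusters enter the denominator, so each share also moves with them.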

How the data were processed

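Nuclei of frozen hippocampus were sequenced with a 10x Genomics 3′ kit, 1 library per mouse. What the authors deposited are raw counts of UMIs for each gene in each nucleus, not normalized. Per the submitters' processing notes they were made with Cell Ranger 5.0.0 on mm10. The study's methods describe a correction of ambient RNA with CellBender and a minimum of genes per nucleus. Whether the deposited counts were taken before or after the former is not given in the sources used here. Nuclei were used as deposited, with no further filter for the sums over all nuclei.

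UMIs were summed per mouse and tested with edgeR 4.0.16 in R 4.3.3 (filterByExpr, TMM, glmQLFit and glmQLFTest, Benjamini-Hochberg adjustment, threshold 0.05), with genotype as a covariate. WT, APP/PS1 and the interaction were contrasts of a fit of 4 group means, and the comparison with isoflurane used all 20 libraries. CPM are counts per 1000000 of a library's total multiplied by its TMM factor, with factors from the libraries of the fit (all 20 for levels under isoflurane). The held-out position of a wake mouse is its place between the other wake mice and the ketamine-xylazine mice on the log2 scale. Differences from mouse 29 are on the log2(CPM + 0.1) scale. Nuclei were clustered with scikit-learn 1.9.0 and igraph 0.11.9 (2000 variable genes, 30 principal components, 20 neighbours, Leiden resolution 1), without 2606 genes (those that passed between ketamine-xylazine and wake, rRNA-like and mitochondrial genes), and 6166 nuclei marked as doublets from simulated ones (6.33%) were left out of the class sums. Clusters were called X-like from listed markers with at least 3 detected. The rules for ties and for clusters whose leading genes held more markers of another class were set after the clusters were seen. The names are thus rebuilt and not the authors'. Of 91176 nuclei kept, 77707 had a name, and 4.79% to 35.1% of a library's nuclei had none. Classes with at least 50 nuclei in every library were tested as above, and the astrocyte-like class in 11 libraries, a choice made after seeing the data. Shares were compared with scipy 1.17.1. Coordinates are from GENCODE M21 on GRCm38, and promoter sequences from RefSeq on GRCm38.p6. The edgeR and DESeq2 fits were tried on simulated counts, where DESeq2 called more unchanged genes than edgeR did.

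The comparison, its gene lists and its markers were chosen with earlier results of these data known. Named genes were the 10 with the smallest p in each direction, up to 5 passing members of each list by p, 17 genes given whatever their result (Fos, Junb, Egr1, Npas4, Nr4a1, Arc, Homer1, Bdnf, Per1, Fkbp5, Grin1, Grin2a, Grin2b, Adra2a, Mtor, Eef2k and Prnp), per class the 3 passing genes with the smallest p in each direction, and the 3 with the smallest interaction p. Some genes that these rules chose are not reported here. Alternatives were DESeq2 1.42.0, RLE scaling, other gene filters, a robust spread, no genotype term, all libraries in 1 fit, a block on runs of mouse numbers, each library left out, another clustering resolution and doublets kept. Genes on opposite strands that overlap, and near-identical copies such as ribosomal protein pseudogenes, may share reads.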

Additional observations from a re-analysis of the deposited data

Results flagged for a closer look

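Dixon's criterion flags about 1 in 20 groups by chance where values are independent and normally distributed. The values here were CPM and shares of related genes and classes, with WT and APP/PS1 mice together, so that rate may not hold. Single mice stood apart from the rest of their group by this criterion in 24 of 200 groups of values examined. Among the 9 wake mice these were Ccdc81 in mouse 19 (6.90 CPM), Gm12940 in mouse 29 (38.3 CPM), Gabra5 in mouse 12 (166 CPM), Plin4 in mouse 19 (4.94 CPM), Pde8a in mouse 29 (72.8 CPM), Vim in mouse 29 (409.6 CPM), Rpl15 in mouse 29 (123 CPM), Rps18 in mouse 29 (78.9 CPM), Fos in mouse 29 (30.9 CPM), Eef2k in mouse 12 (65.4 CPM), Prnp in mouse 2 (404 CPM) and Sfrp1 in mouse 10 (65.8 CPM). Mouse 29, which is numbered beside the ketamine-xylazine mice, accounted for 6 of these 12 wake values. Among the 4 ketamine-xylazine mice they were Nr4a1 in mouse 25 (27.8 CPM), Homer1 in mouse 28 (80.8 CPM), Tsc1 in mouse 27 (106 CPM), Hif3a in mouse 28 (58.2 CPM), Lars2 in mouse 25 (544 CPM), Cmss1 in mouse 25 (3462 CPM), Rpl15 in mouse 28 (115 CPM), Per1 in mouse 25 (52.0 CPM) and Sfrp1 in mouse 28 (303 CPM). Of the shares of nuclei among wake mice, they were CA1-like nuclei in mouse 12 (26.5%), CA3-like nuclei in mouse 12 (11.9%) and endothelial-like nuclei in mouse 10 (3.03%).

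The ketamine-xylazine effect differed between astrocyte-like and CA1-like nuclei of the same mice for 11 of the genes named here that passed the filter on low counts in each class alone (edgeR, mouse as a block, 11 mice). On the log2 scale the effect in astrocyte-like minus that in CA1-like nuclei was 1.85 for Spred2, 1.64 for Homer1, 2.74 for Junb, 3.59 for Egr1, 2.36 for Etv5, 1.60 for Per1, 2.06 for Fos, 1.76 for Fkbp5, 1.34 for Elovl6, 2.61 for Nr4a1 and -1.13 for Grin1. Of these 11, Grin1 had the higher effect in CA1-like nuclei.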

How the results depend on the processing

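No paired analysis was possible because mouse numbers are not shared between the groups and the sources used here tie no mouse to a processing batch. With runs of neighbouring mouse numbers, cut as given above, entered as a block, 0 genes passed over all nuclei in edgeR. The log2 fold changes then reversed to 0.43 for mt-Cytb, 0.19 for mt-Nd4, 0.34 for mt-Nd2, -0.12 for Egr1 and 0.36 for Prnp. That fit rests on mouse 29 alone for its wake level. The 2591 genes over all nuclei became 1713 with at least 10 CPM in 4 libraries (10649 genes tested), 1580 without mice 1 and 2, and 1539 without mice 14 and 17, a setting chosen after seeing the data. Under DESeq2, RLE scaling, no gene filter, a robust spread, no genotype term and all 20 libraries the count was 2338 to 3805. In WT mice the 174 genes became 664 in DESeq2, 33 without mice 1 and 2, and 51 without mice 14 and 17. In APP/PS1 mice the 81 became 995 in DESeq2, 236 with all 20 libraries, 0 without mice 1 and 2, and 0 without mice 14 and 17, with 2878 and 4023 genes at an unadjusted p under 0.05 in the last 2. The interaction count of 0 became 3 in DESeq2 and stayed 0 without any single mouse.

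Without mice 1 and 2, 1165 genes passed in DG granule-like, 430 in CA3-like, 269 in subicular/cortical-like, 340 in interneuron-like, 368 in oligodendrocyte-like and 19 in OPC-like nuclei. Without mice 14 and 17, 1360 passed in DG granule-like, 448 in CA3-like, 274 in interneuron-like, 377 in oligodendrocyte-like, 44 in OPC-like and 371 in astrocyte-like nuclei. With a Leiden resolution of 2, 452 passed in CA3-like and 353 in interneuron-like nuclei, and with doublets kept, 163 in OPC-like nuclei. Without mice 1 and 2 the difference in share reversed for astrocyte-like (-0.594 percentage points) and microglia-like nuclei (0.471 percentage points), neither of which had passed. Egr1 turned to -0.29 without the unnamed clusters and Mtor to -0.023 without mice 1 and 2, both on the log2 scale.

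Leaving out single mice gave 645 to 3392 genes over all nuclei, 17 to 582 in WT, 0 to 220 in APP/PS1 mice and 661 to 2562 against isoflurane, the last with 1304 without mouse 18, 661 without mouse 25, 1115 without mouse 26, 859 without mouse 27 and 1315 without mouse 28. In the classes it gave 439 to 2575 in DG granule-like nuclei (1279 without mouse 2, 973 without mouse 25, 927 without mouse 26 and 439 without mouse 27), 531 to 1986 in CA1-like (783 without mouse 25, 722 without mouse 26 and 531 without mouse 27), 136 to 1076 in CA3-like (449 without mouse 2, 169 without mouse 25, 265 without mouse 26 and 136 without mouse 27), 139 to 807 in subicular/cortical-like (288 without mouse 2, 205 without mouse 25, 197 without mouse 26, 139 without mouse 27 and 321 without mouse 28), 75 to 1070 in interneuron-like (282 without mouse 2, 400 without mouse 13, 447 without mouse 14, 123 without mouse 25, 157 without mouse 26, 75 without mouse 27, 320 without mouse 28 and 1070 without mouse 29), 122 to 930 in oligodendrocyte-like (279 without mouse 2, 352 without mouse 13, 153 without mouse 25, 233 without mouse 26, 122 without mouse 27, 363 without mouse 28 and 930 without mouse 29), 6 to 182 in OPC-like (55 without mouse 2, 63 without mouse 13, 54 without mouse 14, 12 without mouse 25, 26 without mouse 26, 6 without mouse 27 and 182 without mouse 29) and 220 to 947 in astrocyte-like nuclei (514 without mouse 25, 404 without mouse 26 and 220 without mouse 27). In WT mice other single mice gave 83 without mouse 1, 107 without mouse 2, 82 without mouse 12, 31 without mouse 13, 32 without mouse 14, 70 without mouse 25, 71 without mouse 26, 27 without mouse 27, 17 without mouse 28 and 582 without mouse 29, and in APP/PS1 mice 53 without mouse 1, 0 without mouse 2, 0 without mouse 10, 31 without mouse 12, 7 without mouse 13, 11 without mouse 14, 11 without mouse 17, 39 without mouse 19, 0 without mouse 25, 4 without mouse 26, 29 without mouse 27, 33 without mouse 28 and 220 without mouse 29. Differences in share ranged over 0 for OPC-like (-0.0992 to 0.40 percentage points), microglia-like (-0.501 to 0.140), fibroblast-like (-0.463 to 0.145) and choroid plexus/ependyma-like nuclei (-0.215 to 0.830), and the log2 fold change of Egr1 from -0.35 to 0.84.

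Of the 74 genes chosen by the naming rule that passed over all nuclei, 73 of 73 with an adjusted p still passed in DESeq2, 73 of 74 with RLE scaling, 68 without the unnamed clusters, 62 without mice 1 and 2, 57 without mice 14 and 17, 46 without mouse 27 and 0 with the block on runs. Causes of these changes were not tested. Genes at a few CPM rest on few UMIs per library. The OPC-like class had the fewest nuclei tested, and whether that limited what could be detected there was not tested.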
